A study of Mus musculus with 10 samples.

Results

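The cytosolic ribosomal protein genes encode the protein components of the ribosome that works in the cytoplasm. They were taken by symbol from the RefSeq gene table of mouse build GRCm38.p6: protein-coding genes of chromosomes 1 to 19 named Rpl or Rps with a number, together with Rplp0, Rplp1, Rplp2 and Rpsa. Kinase and binding-protein genes that share the prefix (Rps6k and Rps6kl names, Rps19bp1) and ribosomal-protein-like genes with an l after the number were left out. The rule found 78 of 20665 protein-coding genes on those chromosomes. Of the symbols, 5 carry a retrocopy or pseudogene suffix (Rpl37rt, Rpl34-ps1, Rps23rg1, Rps27rt and Rpl31-ps12), and the other 73 divide into 43 large-subunit and 30 small-subunit genes. The members lie on 18 chromosomes and are short, with a median length of 3179 bp (374 to 16779 bp) against 17491 bp over all protein-coding genes.

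The study used chromatin immunoprecipitation with sequencing (ChIP-seq) on primary cortical neurons from C57BL/6J mice, cultured to day 6 in vitro. The depolarized cultures received 50 mM KCl for 45 min, and the untreated cultures did not. Both had spent the night before in medium with 3% serum. The antibodies recognised Gtf3c1, a DNA-binding subunit of TFIIIC, the assembly factor of RNA polymerase III; Rpc155, the catalytic subunit of that polymerase; and the histone modifications H3K4me1 and H3K27ac. Each antibody gave 1 list of regions per condition, so 8 lists were compared and no difference between KCl and untreated could be checked against replicates. Per the series' design text there were 3 biological replicates, and the sources used here do not give whether they were pooled. Of 13 neuron markers on chromosomes 1 to 19, 13 had an H3K27ac region within 1 kb of a gene end in KCl-treated and 13 in untreated neurons. Astrocyte markers had one at 4 (KCl) and 5 (untreated) of 7 genes, and microglia markers at 0 and 0 of 6.

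Ribosomal protein genes are transcribed by RNA polymerase II at a high rate in nearly every cell, and their products assemble with ribosomal RNA into the ribosomal subunits. RNA polymerase III makes the other small RNAs that translation needs, among them 5S ribosomal RNA and the transfer RNAs, and TFIIIC brings it to most of these genes by binding the B box in their promoters. H3K27ac marks active promoters and enhancers, and H3K4me1 marks enhancers and the flanks of active promoters. Messenger RNAs of ribosomal proteins begin with a run of pyrimidines, the 5′ terminal oligopyrimidine (TOP) tract, through which their translation is controlled by the kinase mTOR. Many ribosomal protein genes carry small nucleolar RNA (snoRNA) genes in their introns, and here 28 members held 57 of them.

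A member was counted for a list when any base of a region lay within 1 kb of either end of the gene, and its value is the fold enrichment of the strongest such region. Fold enrichment is the authors' ratio of the region's summit to the local background. The width of this window does not depend on gene length. For Gtf3c1 the lists held 58090 (KCl) and 66622 (untreated) regions, and for Rpc155 they held 4251 (KCl) and 12531 (untreated). The H3K4me1 lists held 193683 and 192225 in that order, and the H3K27ac lists 58124 and 65486. Read depth is unknown, because the lists carry no counts.

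Nearly every ribosomal protein gene had TFIIIC at one of its ends. Gtf3c1 was listed at 74 of 78 members with KCl and at 74 of 78 untreated (94.9% each, exact 95% binomial interval 87.4 to 98.6%). Over all protein-coding genes the share was 47.8% with KCl and 46.5% untreated. The members with a region were the same 74 in both lists, where 41.3% of all genes were in both: 0 were in the KCl list alone, against 6.49% of all genes, and 0 in the untreated list alone, against 5.23%. They were all 73 members without a retrocopy suffix, plus Rpl37rt. The intervals cover counting error over genes only.

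RNA polymerase III was listed at fewer of them. Rpc155 lay within 1 kb of 29 members with KCl (37.2%, interval 26.5 to 48.9%) and of 47 members untreated (60.3%, interval 48.5 to 71.2%). The background over all protein-coding genes was 8.60% with KCl and 22.5% untreated. Both lists held 23 members (background 5.39%), with 6 in the KCl list alone (background 3.21%) and 24 in the untreated list alone (background 17.1%). The untreated Rpc155 list is the longer one. With only its strongest regions kept, to equal length, the order turned: 29 members with KCl and 24 untreated, beside 8.60% and 8.01% of all genes.

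The 4 signals were then counted together. All 4 antibodies had a region at 29 members with KCl and 46 untreated, beside 8.12% and 19.5% of all genes. This nearly repeats the Rpc155 count of 29 and 47 members, because the other antibodies were listed at nearly every member. Over all genes, Rpc155 by itself was at 8.60% and 22.5%. Regions in all 8 lists were found at 23 members (29.5%), beside 4.88% of all genes. H3K27ac was listed at 73 members with KCl and 71 untreated (backgrounds 58.2% and 53.6%), and 71 were in both (background 52.6%). H3K4me1 was listed at 74 members with KCl and 72 untreated (backgrounds 69.2% and 68.6%), and 72 were in both (background 66.9%). Of 29 Rpc155 regions at members with KCl, 28 overlapped a Gtf3c1 region and 29 an H3K27ac region by at least 1 bp. Of all Rpc155 regions within 1 kb of a protein-coding gene end with KCl, 84.9% overlapped Gtf3c1 and 97.4% H3K27ac. Of 50 such regions at members untreated, 46 overlapped Gtf3c1 (all such regions 77.8%) and 49 overlapped H3K27ac (all 93.1%), so that nearly complete overlap with H3K27ac was general.

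**Figure D1:**
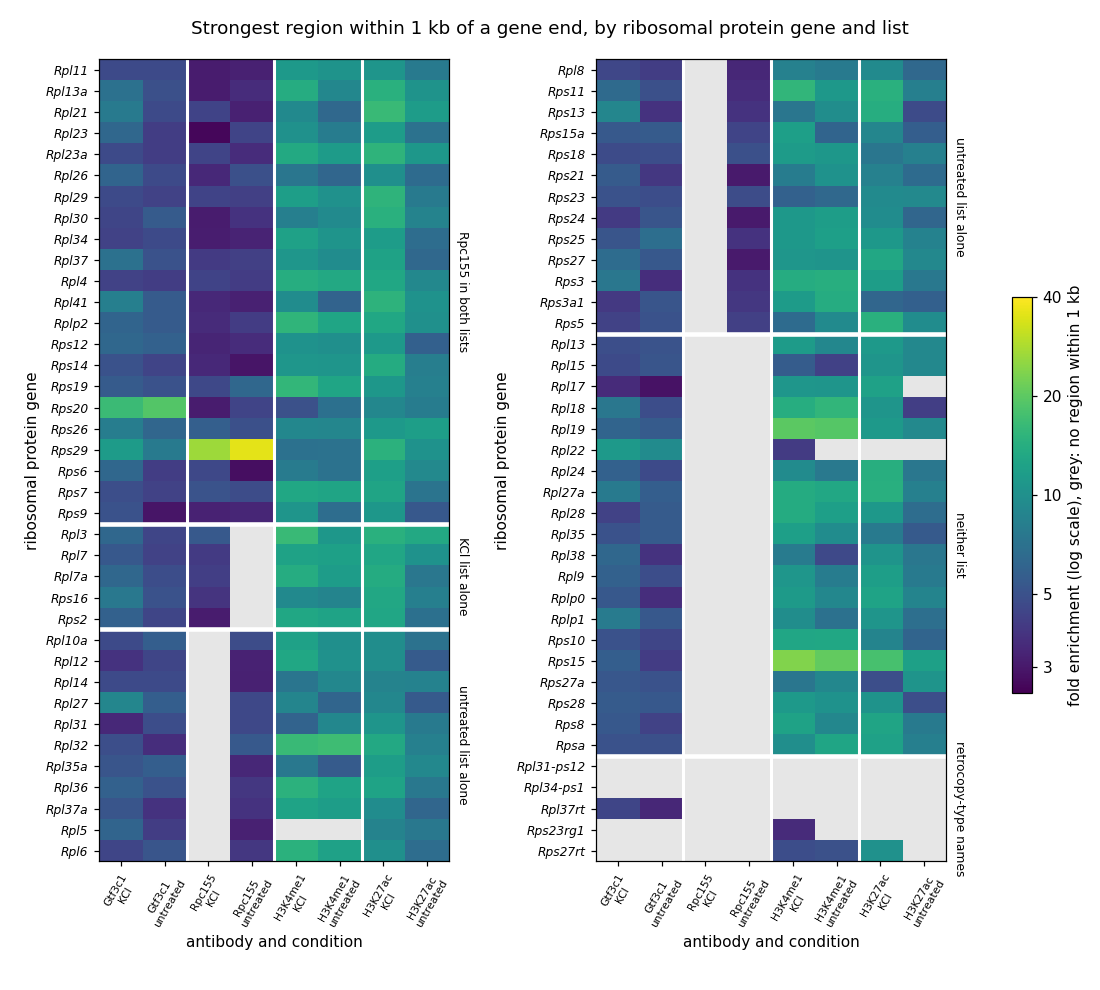
Fold enrichment (colour, log scale) of the strongest region within 1 kb of a gene end for 76 of the 78 ribosomal protein genes (rows) in each of the 8 lists (columns), in blocks by where Rpc155 was listed; grey means no region within 1 kb. The Gtf3c1 columns are filled for every gene drawn without a retrocopy suffix, the Rpc155 columns have a region at 27 (KCl) and 46 (untreated) of the genes drawn, and the retrocopy-type rows are mostly grey.

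Other genes of the translation apparatus were set beside them. For Rpc155 the mitochondrial ribosomal protein genes (78 genes named Mrpl or Mrps) had a region at 10 with KCl and 37 untreated. The 38 genes of translation factors and other TOP messages had one at 8 and 17, and the 43 ribosome biogenesis genes at 7 and 18. Of the genes with Rpc155 in the untreated list, 23 of 47 ribosomal protein genes (48.9%) were also in the KCl list, beside 6 of 37 mitochondrial ones (16.2%) and 24.0% of all protein-coding genes. With lists of equal length those shares were 50.0% of 24, 15.8% of 19 and 35.0%. For Gtf3c1 the lists differed less, with 65 (KCl) and 69 (untreated) mitochondrial, 36 and 36 translation, and 42 and 40 biogenesis genes.

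**Figure D2:**
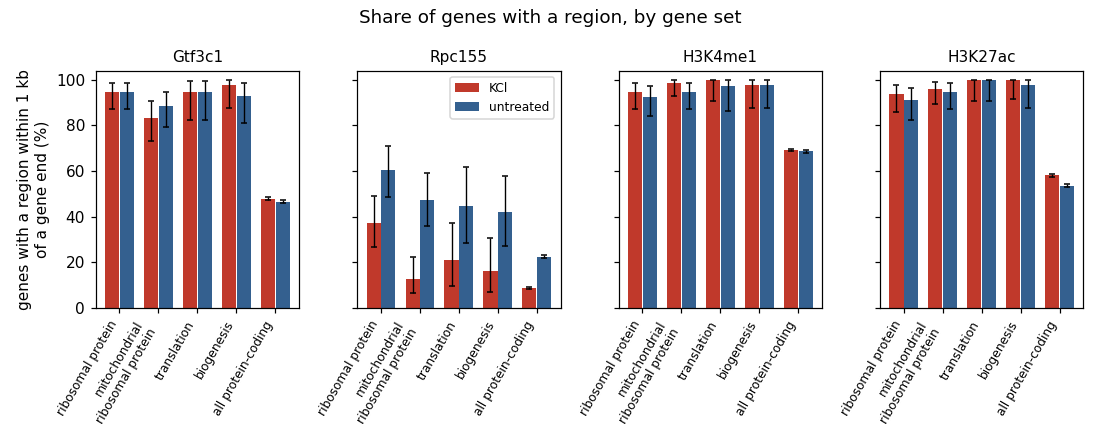
Percent of genes with a region within 1 kb of a gene end (y axis) by gene set (x axis) and antibody (panels), KCl in red and untreated in blue, with exact 95% binomial intervals that cover counting error over genes only. The Rpc155 bars of the ribosomal protein genes (37.2% KCl, 60.3% untreated) stand above those of all protein-coding genes (8.60% and 22.5%).

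Most members also carried H3K27ac, so the shares were taken again among genes with H3K27ac. Gtf3c1 was then at 98.6% of members with KCl and 100% untreated. The mitochondrial ribosomal protein genes had 85.3% and 93.2%, and the translation genes 94.7% in each condition. The Gtf3c1 shares of all protein-coding genes given above, 47.8% and 46.5%, count genes with and without H3K27ac. They are therefore not a matched comparison, and the share among all genes with H3K27ac is not reported here. Of members with an H3K27ac region, 39.7% with KCl and 66.2% untreated had Rpc155, beside 14.7% and 40.8% of all genes with H3K27ac. Within one class of H3K27ac fold enrichment the difference was not uniform. With KCl, Rpc155 was listed at 24 of 50 members of 10 to under 15 (48.0%, all genes 22.4%), but at 2 of 18 members of 5 to under 10 (11.1%, all genes 10.9%). Untreated, it was listed at 39 of 57 members of 5 to under 10 (68.4%, all genes 46.2%), and at 7 of 11 members of 10 to under 15 (63.6%, all genes 64.8%). These classes were chosen after the data were seen. Members with Rpc155 in the KCl list had a median H3K27ac fold enrichment of 12.8 (9.05 to 16.3, n = 29), and those without it 10.7 (4.84 to 17.8, n = 43, retrocopy-type names left out of both). In the untreated lists both medians were 7.87.

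The highest Rpc155 value belonged to Rps29, which encodes a small zinc-binding protein of the small subunit. Rps29 (chr12:69157722-69159186) had a Rpc155 fold enrichment of 26.5 with KCl and 35.8 untreated. Its Gtf3c1 fold enrichment was 11.5 with KCl and 7.88 untreated. The Rpc155 regions spanned chr12:69158654-69159981 (KCl) and chr12:69158955-69159960 (untreated), and both cover Rn7s1, a gene of the 7SL RNA of the signal recognition particle, at chr12:69159295-69159593. This RNA is a known RNA polymerase III product, and its gene starts 109 bp beyond the end of Rps29. The value of Rps29 therefore cannot be told apart from that of its neighbour.

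Without Rps29 the Rpc155 values were low and close together. Among the other members the highest with KCl was 5.81 at Rps26 and the highest untreated was 6.28 at Rps19. The medians, Rps29 included, were 3.81 over 29 members with KCl and 3.75 over 47 members untreated, beside 3.63 and 3.57 over all genes with a region. At a q of 1e-05 or lower 11 members with KCl (14.1%) and 20 untreated (25.6%) kept a Rpc155 region, beside 2.74% and 6.33% of all genes. The remaining 18 and 27 members had Rpc155 regions of weaker q alone.

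Rps19, a small-subunit protein that is the most often mutated gene in human Diamond-Blackfan anaemia, had a Rpc155 fold enrichment of 4.54 with KCl and 6.28 untreated. Its Rpc155 summits lay 12 bp (KCl) and 33 bp (untreated) downstream of an annotated start. Rps26, whose protein lines the messenger RNA exit channel, had 5.81 with KCl and 4.92 untreated, with summits at −191 bp (KCl) and −167 bp (untreated) from the start, a minus sign meaning upstream. Rps7 had 5.09 with KCl and 4.75 untreated, and Rpl26 had 3.45 and 4.92. Rps6, the small-subunit protein that S6 kinases phosphorylate, had the largest log2 ratio of Rpc155 fold enrichment, KCl over untreated, at 0.71 (4.54 with KCl, 2.77 untreated). Rpl23 had the smallest, −0.74 (2.64 with KCl, 4.41 untreated). Only these 2 of the 23 members in both lists differed by 1.5-fold or more, 1 higher (background 7.90%) and 1 lower (background 4.49%).

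The Rpc155 list of KCl-treated neurons held 6 members that the untreated list did not. Rpl3, a protein near the peptidyl transferase centre, had the highest of these values, 5.45, and it was followed by Rpl7a with 4.18 and Rpl7 with 4.00. Rps16 had 3.81 and Rps2 had 3.09. Of the 24 in the untreated list alone, the 5 with the lowest q were Rpl32 (fold enrichment 5.43), Rps18 (4.92), Rpl10a (4.75), Rps23 (4.75) and Rpl31 (4.58). The proteins that hold 5S ribosomal RNA, itself a product of RNA polymerase III, are encoded by Rpl5 and Rpl11. Rpl11 was in both Rpc155 lists, at 3.09 with KCl and 3.23 untreated. Rpl5 was in the untreated list alone, at 3.23. Of the stalk genes, Rplp2 was in both, at 3.52 with KCl and 4.07 untreated, and Rplp0 and Rplp1 were in neither.

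Large-subunit and small-subunit genes had similar shares. Rpc155 was listed at 17 of 43 large-subunit genes with KCl and 26 of 43 untreated, and at 12 of 30 small-subunit genes with KCl and 21 of 30 untreated. Members that host snoRNA genes had Rpc155 at 15 of 28 with KCl and 19 of 28 untreated. Members without a snoRNA gene, retrocopy-type names left out, had it at 14 of 45 with KCl and 28 of 45 untreated. Median Gtf3c1 fold enrichment at the hosts was 6.19 with KCl and 4.87 untreated, and at the others 5.29 and 4.84. A nuclear transfer RNA gene lay within 10 kb of Rpl23 (7626 bp away) and Rps12 (8029 bp away), and of no other member. The RefSeq genes used held none on chromosome 18, where Rps14 and Rpl17 lie.

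The highest Gtf3c1 fold enrichment was at Rps20 (chr4:3831584-3835655), with 16.5 in KCl-treated and 19 in untreated neurons. The end of Rps20 at which the region lies is overlapped by the long noncoding RNA gene Gm32823 (chr4:3835649-3864923). Rps29 came next with KCl, then Rpl22 with 11.1 (KCl) and 9.49 (untreated). Median Gtf3c1 fold enrichment over members was 5.39 with KCl (range 3.45 to 16.5) and 4.84 untreated (range 2.87 to 19). Over all genes with a region it was 4.48 and 4.12.

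Gtf3c1 values were higher with KCl at most members, and at most genes in all. Of 74 members in both lists, 55 were higher with KCl (74.3%, background 63.5%) and 19 lower. The strongest regions compared were not always at the same site. At Rpl3 the 6.28 with KCl and the 4.48 untreated lay at opposite ends of the gene. The median log2 ratio, KCl over untreated, was 0.23 (order-statistic interval 0.14 to 0.38) and that of all genes 0.13, a difference of 0.10. At least 1.5-fold higher were 11 members (14.9%, background 15.1%), and 0 were at least 1.5-fold lower (background 4.77%). The order of members by Gtf3c1 value was only loosely kept between conditions, with a Spearman rho of 0.27 over the 73 members without a retrocopy suffix; for H3K4me1 it was 0.77 over 71. These correlations are across genes of the same 2 libraries and are descriptions.

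The largest Gtf3c1 ratio was at Rps13, a small-subunit protein. Rps13 (chr7:116331507-116334190) had 8.97 with KCl and 3.76 untreated, a log2 ratio of 1.25. These values belong to different regions. The KCl region (chr7:116332704-116334540) covers the start, and the untreated one (chr7:116335143-116335386) lies upstream of the gene. An untreated region over the start (chr7:116333906-116334208) had 3.25. Rps13 also had the largest H3K27ac ratio, 1.57, with 14.0 in KCl-treated and 4.72 in untreated neurons. Its H3K4me1 value was lower with KCl, 7.46 against 9.77 untreated, and Rpc155 was listed in untreated neurons alone at 3.75. Rps3, a protein of the messenger RNA entry channel, had 7.53 for Gtf3c1 with KCl and 3.58 untreated. Rpl38, whose loss in mice alters translation of Hox messages, had 6.28 with KCl and 3.73 untreated. At the other end, Rpl31 had 3.45 with KCl and 4.84 untreated, a log2 ratio of −0.49.

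H3K27ac values were higher with KCl at nearly every member, and at nearly every gene in all. Of 71 members in both lists, 68 were higher with KCl (95.8%, background 91.0%) and 3 lower. Median fold enrichment was 11.5 with KCl (n = 73) and 7.87 untreated (n = 71), against 8.91 and 6.35 over all genes with a region. The median log2 ratio was 0.56 (interval 0.50 to 0.64), and the same ratio over all genes was 0.50, so that 0.06 remained relative to all genes. At least 1.5-fold higher were 33 members (46.5%, background 40.7%). The regions were also wider, with a median of 2852 bp at members with KCl and 1922 bp untreated, beside 2028 and 1462 bp over all genes.

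The highest H3K27ac value with KCl was at Rps15, a protein of the small-subunit head, with 17.8 against 12.1 untreated. Untreated, the highest was 13.3 at Rpl3, which had 14.5 with KCl. Rps15 also had the highest H3K4me1 values, 23.7 with KCl and 20.6 untreated, and no Rpc155 region in either list. Rpl21 had an H3K27ac value of 16.3 with KCl and 11.6 untreated, and Rpl23a, which lines the exit of the nascent chain, had 15.1 and 10.8. After Rps13 the largest ratios were 1.34 at Rpl18 (10.7 with KCl, 4.20 untreated), 1.10 at Rps28 (10.4 and 4.85) and 1.02 at Rps9 (10.8 and 5.35). Rps27a, which encodes a small-subunit protein fused to ubiquitin, went the other way. Its H3K27ac value was 4.84 with KCl and 10.5 untreated, a log2 ratio of −1.12, and it was the 1 member at least 1.5-fold lower (background 0.571%). The other 2 lower members were Rps18 (−0.17) and Rps26 (−0.09).

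**Figure D3:**
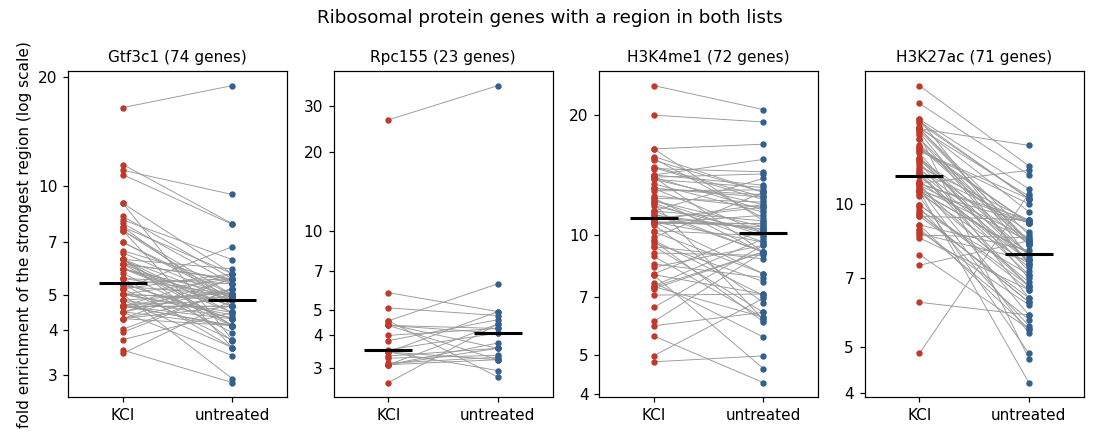
Fold enrichment (y axis, log scale) of the strongest region at each ribosomal protein gene listed in both conditions, KCl at the left and untreated at the right of each panel; grey lines join a gene's values and black bars are medians. H3K27ac medians were 11.5 (KCl) and 7.87 (untreated) over 71 genes, Gtf3c1 5.39 and 4.84 over 74, H3K4me1 11.0 and 10.1 over 72, and Rpc155 3.52 and 4.07 over 23, where the pair far above the rest is Rps29.

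H3K4me1 differed little between conditions. Its median fold enrichment was 11.0 with KCl (n = 74) and 10.1 untreated (n = 72), beside 7.29 and 6.75 over all genes with a region. The median log2 ratio of 0.11 over 72 members equalled that of all genes, 0.11. With KCl 52 of the 72 members were higher and 20 lower, beside 8658 higher and 5176 lower of 13834 genes in all. At least 1.5-fold higher with KCl were 6 members (background 9.17%), and 0 were at least 1.5-fold lower (background 3.75%). The largest ratio was 0.97 at Rps15a (12 with KCl, 6.13 untreated). H3K4me1 was in the KCl list alone at 2 members (background 2.26%), Rpl22 at 4.06 and Rps23rg1 at 3.53, and at 0 in the untreated list alone (background 1.66%).

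The 4 signals sat at different places along the genes. Strand and start were known for the 57 members in the RefSeq promoter table, and each summit was measured from the nearest annotated start. Rpc155 summits lay at the start: 16 of 18 with KCl and 30 of 34 untreated were within 500 bp of it (88.9% and 88.2%), beside 53.8% and 68.8% over all genes. Their medians were 42 bp (KCl) and 2 bp (untreated) downstream. H3K27ac regions covered the start at 46 of 53 members with KCl and 39 of 52 untreated (86.8% and 75.0%, all genes 78.2% and 64.4%), with median summits 244 and 216 bp downstream.

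The strongest H3K4me1 regions left the start free. Their summits lay a median 1250 bp (KCl) and 1254 bp (untreated) downstream, and only 3 of 54 with KCl and 1 of 52 untreated were within 500 bp of a start. Over all genes those shares were 25.4% and 26.7%. The region covered the start at 2 members with KCl and 1 untreated (3.70% and 1.92%), beside 30.1% and 27.3% of all genes. Since the members are short, a summit that far downstream can be at the 3′ end of a member. At many members, however, the strongest summit was more than 1 kb from both ends. With the summit required within 1 kb of an end, median H3K4me1 fold enrichment fell from 11.0 to 6.89 with KCl. Untreated, it fell from 10.1 to 5.69.

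The strongest Gtf3c1 region had its summit nearer to the start with KCl. That summit was within 500 bp at 42 of 54 members with KCl and 27 of 54 untreated (77.8% and 50.0%), beside 66.2% and 63.6% over all genes. The strongest region covered the start at 46 members with KCl and 34 untreated (85.2% and 63.0%, all genes 61.3% and 50.8%). A different region can rank first in each list. At Rps13 an untreated region of 3.25 covered the start, but the one of 3.76 upstream was measured. The median distance was 140 bp with KCl and 279 bp untreated. Gtf3c1 regions at members were also wide, with a median of 1392 bp with KCl and 1108 bp untreated, against 710 and 598 bp over all genes.

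**Figure D4:**
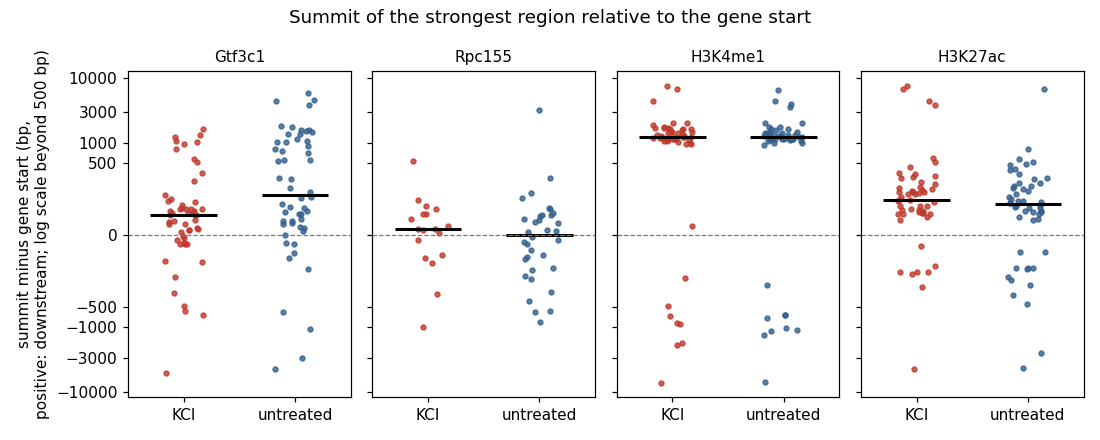
Distance in bp from the nearest annotated start to the summit of the strongest region (y axis, positive downstream, log scale beyond 500 bp) at ribosomal protein genes in the promoter table, KCl left and untreated right, black bars medians, points spread sideways for visibility. Rpc155 summits gather at the start (16 of 18 with KCl and 30 of 34 untreated within 500 bp), and H3K4me1 summits at a median of 1250 bp (KCl) and 1254 bp (untreated).

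Of the 5 members with a retrocopy or pseudogene suffix, 4 had no Gtf3c1 region, and none of the 5 had Rpc155. Rpl37rt had Gtf3c1 at 4.48 with KCl and 3.40 untreated, and it has the gene Acads 31 bp from its end. Rps27rt had H3K4me1 at 4.81 with KCl and 4.98 untreated, and an H3K27ac region of 10.1 was counted with KCl alone. That region has its summit at position 114978815 of chromosome 9, near the end of the overlapping gene Osbpl10 (chr9:114978485-115233273), and reaches to within 1 kb of Rps27rt (chr9:114982366-114982739). Untreated, a region of 8.00 lay at the same place and stopped 2498 bp short of Rps27rt. Rpl34-ps1 and Rpl31-ps12 had no region in any of the 8 lists. Reads of such copies can be hard to place apart from those of the parent gene, and the treatment of reads that map to several places is not given in the sources.

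Only 5 members had no H3K27ac region within 1 kb of an end in either list: Rpl22 and the retrocopy-type Rpl37rt, Rpl34-ps1, Rps23rg1 and Rpl31-ps12. For Rpl22 (chr4:152324436-152334082), a large-subunit protein with a close paralogue, the annotated starts matter for this count. One annotated start is at the gene's end, at position 152324436, and another is inside the gene at 152325726. H3K27ac regions of 9.18 with KCl (chr4:152325849-152328356) and 6.48 untreated (chr4:152325895-152327115) lay just past the inner start. Rpc155 was there too, at 3.46 with KCl (chr4:152325512-152325858) and 3.57 untreated (chr4:152325800-152326051). The 2 members with H3K27ac in the KCl list alone were Rpl17 and Rps27rt (background 5.60%), and 0 were in the untreated list alone (background 1.05%). The Rpl17 value of 12.2 with KCl is of a region wholly beyond the gene's end, with its summit inside the neighbouring gene BC031181. A second KCl region, of 11.6, lay over Rpl17 itself and reached past its end. Untreated, a region of 9.65 overlapped that place but lay inside the gene, more than 1 kb from either end. Counting regions anywhere in the gene as well, an alternative added after the data were seen, gave Rpc155 at 31 members with KCl and 51 untreated (all genes 13.1% and 31.4%), and H3K27ac at 74 and 73 (all genes 64.6% and 61.3%). This wider window grows with gene length.

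The promoter sequences of the members were set beside those of all genes. The table, RefSeq on GRCm38.p6, gives 250 bases before and 50 after each annotated start, and 57 of the 78 members are in it, beside 16457 protein-coding genes in all. An unbroken run of at least 8 pyrimidines covered a start at 18 members (31.6%), at 1.45% of mitochondrial ribosomal protein genes and at 4.27% of all genes. The start itself was a C at 38.6% of members and 16.3% of all genes. The members with the longest runs, chosen after their values were seen, are shown from 50 bases before to 20 bases from the start, with the run in capitals. The lines are on the strand of the gene, 5′ to 3′.
Rpl7a (chr2:26910757-26910826, plus strand): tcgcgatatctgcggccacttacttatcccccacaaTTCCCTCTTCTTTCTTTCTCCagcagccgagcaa
Rpl27a (chr7:109519145-109519214, plus strand): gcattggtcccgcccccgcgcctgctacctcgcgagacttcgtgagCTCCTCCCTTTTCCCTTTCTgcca
Rpl34 (chr3:130730318-130730387, minus strand): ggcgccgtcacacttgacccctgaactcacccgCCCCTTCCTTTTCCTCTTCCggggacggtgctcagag
Rpl35 (chr2:39005112-39005181, minus strand): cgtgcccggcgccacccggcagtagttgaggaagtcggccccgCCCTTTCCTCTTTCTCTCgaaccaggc
Rpl15 (chr14:18270967-18271036, minus strand): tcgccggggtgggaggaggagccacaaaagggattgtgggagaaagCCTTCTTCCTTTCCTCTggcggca

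These runs are 21, 20, 20, 18 and 17 bases long in the order shown. Rpc155 was listed at 5 of 18 members with a run with KCl and 10 of 18 untreated, and at 13 of 39 members without one with KCl and 24 of 39 untreated. Rps26, with the highest Rpc155 value outside Rps29 with KCl, has no pyrimidine at its annotated start, and Rps23rg1, a retrocopy-type gene with no H3K27ac, has a run of 10. In the Rps23rg1 line the run is again in capitals.
Rps26 (chr10:128626487-128626556, minus strand): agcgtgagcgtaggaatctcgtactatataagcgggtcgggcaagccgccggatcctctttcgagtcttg
Rps23rg1 (chr8:3567948-3568017, plus strand): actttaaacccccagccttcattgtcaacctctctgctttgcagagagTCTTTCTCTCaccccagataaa

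Motifs were searched on both strands over the whole window of 300 bases. The ETS factor core CCGGAAG was in 23 member promoters (40.4%), in 37.7% of mitochondrial ribosomal protein promoters and in 13.3% of all. The TATA box TATAAA was in 5 (8.77%, all 15.0%) and the YY1 core AAGATGGC in 5 (8.77%, all 3.59%). A palindromic element of 10 bases with a CGCG centre was in 6 members (10.5%, all 0.753%, mitochondrial 1.45%). Its first base stood between positions −54 and −1 from an annotated start, and the 6 sites are shown with the element in capitals.
Rpl10a (chr17:28328519-28328558, plus strand): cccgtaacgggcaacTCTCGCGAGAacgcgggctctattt
Rpl12 (chr2:32961643-32961682, plus strand): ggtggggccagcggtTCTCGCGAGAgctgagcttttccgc
Rpl26 (chr11:68901525-68901564, plus strand): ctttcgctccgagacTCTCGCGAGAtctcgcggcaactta
Rps19 (chr7:24884569-24884608, plus strand): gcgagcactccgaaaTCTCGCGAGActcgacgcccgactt
Rps28 (chr17:33824539-33824578, minus strand): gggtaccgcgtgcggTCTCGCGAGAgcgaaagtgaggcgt
Rps6 (chr4:86857394-86857433, minus strand): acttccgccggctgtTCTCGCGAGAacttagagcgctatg

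Of these 6 windows, 2 were overlapped by a Rpc155 region with KCl (Rps19 and Rps6) and 4 untreated (Rpl10a, Rpl12, Rpl26 and Rps19). Gtf3c1 regions overlapped 5 of them with KCl and 5 untreated. Of all 57 members with a known start, the strongest Gtf3c1 region covered it at 46 (KCl) and 34 (untreated). The strongest Rpc155 region did so at 10 and 20. The Rpl12 window runs into the gene Lrsam1 (chr2:32925215-32961654) and the Rps28 window into Ndufa7 (chr17:33824572-33838316). Overlaps at those windows cannot be told apart from those of the neighbour. The TFIIIC B box GTTCGANNC was in 3 members (5.26%, all 1.12%), shown with the match in capitals; the Rps18 match reads on the opposite strand.
Rpl13a (chr7:45128783-45128822, minus strand): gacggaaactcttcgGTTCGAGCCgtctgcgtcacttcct
Rpl22 (chr4:152325524-152325563, plus strand): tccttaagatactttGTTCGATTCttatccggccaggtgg
Rps18 (chr17:33955874-33955913, minus strand): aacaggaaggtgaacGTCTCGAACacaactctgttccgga

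All 3 B box windows were overlapped by a Gtf3c1 region with KCl and untreated. Such overlap was common among members with or without a B box. Where a start was known and Gtf3c1 listed, its strongest region covered the start at 85.2% (KCl) and 63.0% (untreated). A Rpc155 region overlapped the Rpl22 window with KCl and the Rps18 window untreated. The Rps18 window lies inside the neighbouring gene Vps52 (chr17:33955779-33967038). The Rpl22 window lies inside the long noncoding RNA gene 9430083M05Rik (chr4:152321318-152325705). Overlaps at these windows cannot be told apart from those of the other gene. At Rpl22 the Gtf3c1 summits lay at −58 bp (KCl) and −53 bp (untreated) from the inner start. A match in letters is a description of the window and was not tested as a binding site.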

How the data were processed

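ChIP-seq regions were compared in 8 deposited lists, 1 per antibody and condition. The submitters' processing notes name Bowtie2, MACS2 and the build GRCm38 (mm10). Versions and any pooling of replicates are not given in the sources. Input chromatin was not analysed here. The deposited fold enrichment is the authors' ratio of summit to local background. The p-value and q-value of each region were deposited as −log10, and the authors' score is the −log10 q times 10. None is adjusted between libraries, so depth and list length differ freely between conditions.

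Coordinates are 1-based on GRCm38. Members and comparison lists were chosen with earlier results of these data known. Genes came from RefSeq. The nearness count was tested on simulated data. Named members are those with the 5 highest fold enrichments per list, the 4 largest and 4 smallest log2 ratios, a region in 1 condition alone (the 5 lowest q where more than 10), no H3K27ac, or Rpc155 ranking among the highest 5 of those in all 8 lists; stalk and 5S-binding genes and the neighbours of named members were added after values were seen. Shares carry exact (Clopper-Pearson) 95% intervals, computed with scipy 1.17.1 under Python 3.11.15. With 1 list per condition no test was run. Columns of per-sample values left unused numbered 0. Some named members are not reported here.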

Additional observations from a re-analysis of the deposited data

How the results depend on the processing

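The median log2 ratios of Gtf3c1, H3K4me1 and H3K27ac stayed above 0 under each alternative run. That of Rpc155, −0.07, was 0.07 at a q of 1e-05 or lower and −0.24 with lists of equal length. At a q of 1e-05 or lower, Rpc155 was listed at 14.1% of members with KCl and 25.6% untreated (17.9% in the untreated list alone), with median fold enrichments of 4.54 and 4.58, and all 4 antibodies met at 14.1% and 25.6%. With lists of equal length, Rpc155 was listed at 30.8% of members untreated, 21.8% were in the KCl list alone and 15.4% in the untreated list alone, its untreated median was 4.50, and all 4 antibodies met at 30.8% untreated. With the summit within 1 kb, H3K4me1 was listed at 85.9% of members with KCl and 80.8% untreated (8.97% in the KCl list alone), with medians of 6.89 and 5.69. Within 5 kb, the untreated shares were 71.8% for Rpc155, 97.4% for H3K4me1 and 71.8% for all 4 antibodies, and 0% of members had H3K4me1 or H3K27ac in the KCl list alone. Without members that have a neighbour within 2 kb, which leaves 33, the untreated H3K27ac median was 7.36. At gene starts only, 0% of 57 members had H3K27ac in the KCl list alone. The cause of these shifts was not tested beyond the fewer or more regions that each setting admits by construction.

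With Rpl36al counted as a member, Rpc155 was listed at 36.7% (KCl) and 60.8% (untreated). Depth is unknown, so a missing region is a missing call and not an absence of binding. With 1 list per condition the difference between KCl and untreated rests on single calls. No paired analysis was possible because each antibody has 1 list per condition and no test gives a result.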
